A study of Mus musculus with 6 samples.

Results

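The adipogenic and lipid storage genes described here are 45 of the 55426 features measured in mouse pancreatic stellate cells (PSCs), listed by name under 46 symbols because Pref1 is an older name of Dlk1. They comprise transcriptional regulators of adipogenesis, adipokines, coat proteins of the lipid droplet, proteins of fatty acid uptake, lipases with their cofactors and inhibitors, enzymes of triglyceride synthesis and 2 receptors. They were chosen by name with earlier results of the same contrast known, among them the large falls of Cidec and Thrsp and their high values in normoxic replicate 2. Their changes between the conditions are therefore given as a description, without p-values. Primary PSCs were isolated from pancreas of wild-type C57BL/6 mice aged 8 to 12 weeks, used as lines at passages 2 to 4, embedded in Matrigel in transwell inserts, and kept above organoids of mT3, a mouse pancreatic ductal adenocarcinoma (PDAC) line. RNA of the PSCs was sequenced in 6 samples, 3 from cocultures at 21% O2 (normoxia) and 3 from cocultures at 1% O2 (hypoxia), each after 48 h. Organoids were present in all 6 cocultures, and the organoids' own RNA was not analysed here. The labels do not say whether the replicates were separate PSC lines, so the spread behind the errors is that between these samples, which may be technical. PSCs cultured without organoids were not analysed here, so genes that stellate cells express alone could not be picked from data and the classes of genes used below come from general knowledge.

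Adipocytes arise from mesenchymal precursors in steps. C/EBPβ and C/EBPδ act early and induce PPARγ and C/EBPα, which maintain each other and switch on the genes of the mature fat cell, those for adipokines, droplet coat proteins and the enzymes that store and release triglyceride. Quiescent stellate cells of pancreas and liver share part of this equipment, since they store retinyl esters in lipid droplets and lose them on activation. Hypoxia induces some droplet proteins in many cell types through the HIF transcription factors.

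Of the 45 genes, 38 had enough counts to be tested in edgeR's fit, and 3 were called higher and 29 lower at 1% O2. A gene was called when its linear fold change passed 1.5 and its Benjamini-Hochberg adjusted p in edgeR's quasi-likelihood test over all 16207 tested genes was under 0.05. The called higher genes were Hilpda, Cebpd and Dlk1. The genes that were tested and not called were Cebpb, Ebf2, Plin2, Plin3, Pnpla3 and Lpin1. Over all tested genes, 18.9% were called higher and 15.3% lower. Samples of the 2 conditions did not overlap in 34 of the 38 genes and in 68.9% of all tested genes. The median log2 fold change was -1.89 over the 38 genes and -0.00398 over all tested genes. Because the genes were chosen with this contrast known, nothing is read from these shares.

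The samples held between 24749601 and 31925054 counts. Values are given as counts or as CPM, which are counts per 1000000 of the TMM-scaled library size, and a library's detection limit, set at 3 counts, corresponded to 0.0943 to 0.122 CPM. Fibroblast markers such as Col1a1 were abundant, with the 12 stellate and fibroblast markers summing to 28088 to 35236 CPM in normoxia and 30299.9 to 35091 CPM in hypoxia, but Lrat, the retinol-esterifying enzyme of quiescent stellate cells, had 1 count in 1 hypoxic sample and none in the others. Macrophage markers were also measured. Their 15 genes summed to 1082, 1919 and 1512 CPM in the normoxic samples and to 553, 1012 and 681 CPM in the hypoxic ones, and all 15 were highest in replicate 2 of each condition. Macrophages express several of the genes described here, among them Fabp4, Fabp5, Cd36, Lpl, Plin2 and Pparg. In bulk RNA, fewer cells of a type cannot be told from less RNA per cell.

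Upstream sequences are shown for the gene that rose most, the gene with the lowest fold change and the central regulator of the program. They are from RefSeq on GRCm38.p6, which gave promoters for 34 of the 45 genes, 47 in all. The 250 bases before each start were searched on both strands for the HIF core ACGTG or GCGTG, the C/EBP motif TTGCNNAA and the direct repeat bound by PPARγ with RXR, a pair of AGGNCA hexamers with any 1 base between them. Capitals mark the matches, in either strand's letters. Hilpda has 3 HIF cores before the second of its RefSeq starts, a region that lies partly in exons of GENCODE transcripts, at chr6:29272503-29272531, chr6:29272571-29272599 and chr6:29272606-29272625 on the forward strand. The window before its first start held none.
Hilpda, 111 bases before the start: caaccgcgagccGCGTGctttccgtgact
Hilpda, 43 bases before the start: gatggccagcggACGTGccccagggcgag
Hilpda, 8 bases before the start: caggttcggtacGCGTGcgc
In Cidec, on the reverse strand at chr6:113434765-113435014, the window before 1 of its 2 RefSeq starts holds a C/EBP motif 198 bases and a HIF core 79 bases before the start.
Cidec: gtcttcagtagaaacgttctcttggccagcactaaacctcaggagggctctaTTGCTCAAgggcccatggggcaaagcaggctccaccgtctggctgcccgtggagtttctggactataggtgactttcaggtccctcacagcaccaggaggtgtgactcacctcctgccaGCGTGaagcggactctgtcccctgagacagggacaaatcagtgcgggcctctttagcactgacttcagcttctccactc
In Pparg, on the forward strand, the window before its most downstream RefSeq start lies at chr6:115421816-115422065, outside exons, and holds C/EBP motifs 215 and 16 bases before the start. The window before its first start, which lies mostly in exons and is not shown, holds HIF cores 242 and 8 bases before the start.
Pparg: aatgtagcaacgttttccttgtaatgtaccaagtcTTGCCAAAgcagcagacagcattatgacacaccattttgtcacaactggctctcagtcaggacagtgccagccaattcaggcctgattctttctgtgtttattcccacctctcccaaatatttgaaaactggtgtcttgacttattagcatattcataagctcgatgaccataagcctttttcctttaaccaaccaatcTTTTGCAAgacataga
Of all 32851 promoters, 38.6% held a HIF core, 9.56% the C/EBP motif and 0.338% the direct repeat. Of the 47 promoters of the genes described here, 21 held a HIF core, 5 the C/EBP motif and 0 the direct repeat. Among genes called lower at 1% O2, 22 had a promoter and 11 of these held a HIF core. A match describes the letters and is not evidence of binding.

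Among the regulators, Pparg, Cebpa, Klf15 and Zfp423 fell at 1% O2, Cebpd rose, and Cebpb and Ebf2 were not called. Pparg, the nuclear receptor that drives adipocyte differentiation, was at 66.8, 87.1 and 63.0 CPM in normoxic replicates 1, 2 and 3 and at 17.9, 19.3 and 17.2 CPM in the hypoxic ones. Every hypoxic sample was below every normoxic one, with a log2 fold change of -1.996 ± 0.12 (SE, as for all fold changes given). Cebpa, its partner, was at 284, 426 and 263 CPM and at 66.5, 74.1 and 59.0 CPM, a log2 fold change of -2.29 ± 0.17. In both genes the normoxic replicate 2 was the highest of the 6 samples. Klf15, a Krüppel-like factor of adipocytes, went from 37.2, 43.4 and 35.7 CPM to 11.9, 13.98 and 12.3 CPM, a log2 fold change of -1.60 ± 0.10.

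Zfp423, a zinc finger protein of committed preadipocytes, had the lowest fold change among the regulators and was even across replicates. Its values were 19.5, 19.2 and 17.9 CPM in normoxia and 3.14, 3.51 and 3.33 CPM in hypoxia, a log2 fold change of -2.50 ± 0.10. Ebf2, another factor of preadipocytes, was at 21.9, 21.4 and 20.6 CPM and at 18.1, 16.7 and 20.2 CPM. Its conditions did not overlap, yet its log2 fold change of -0.21 ± 0.08 was under the fold threshold.

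The early regulators did not move together. Cebpb was at 356, 332 and 367 CPM in normoxia and 379.9, 401 and 359.9 CPM in hypoxia, overlapping, with a log2 fold change of 0.11 ± 0.06. Cebpd was at 40.5, 47.7 and 51.0 CPM and 148, 169 and 150.3 CPM, without overlap, a log2 fold change of 1.75 ± 0.09. Exons of 16 of the 45 genes, Cebpa, Cebpb, Cebpd and Ebf2 among them, overlap genes on the opposite strand, and the strand setting of the counting is not given in the sources used here.

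Dlk1, a membrane protein of preadipocytes that inhibits differentiation, rose from a low level. It had 21, 67 and 29 normoxic counts and 120, 173 and 140 hypoxic counts, which were all higher. The log2 fold change was 1.68 ± 0.34, and it was 2.29 without normoxic replicate 2, which held the highest normoxic value.

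**Figure D1:**
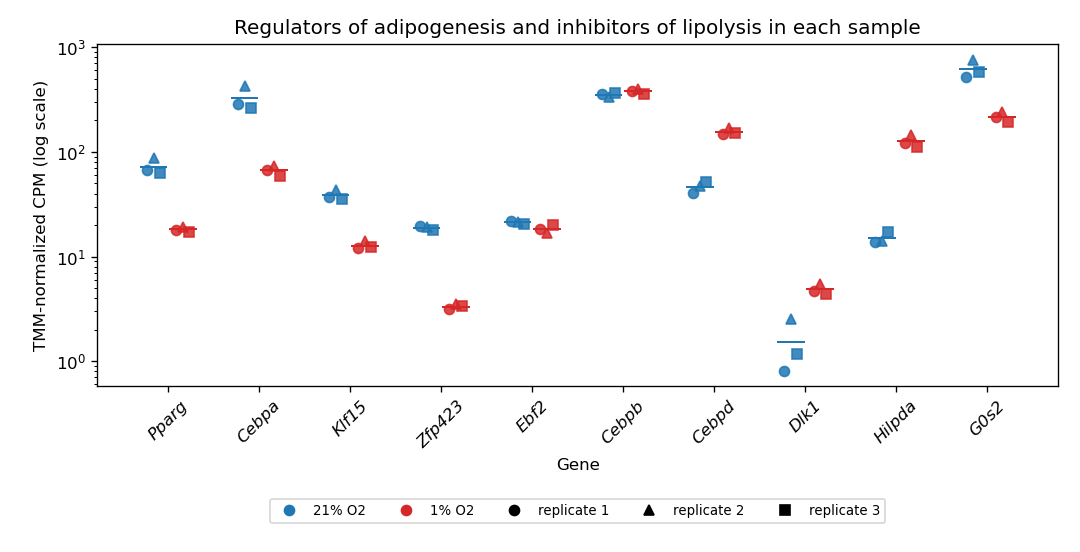
TMM-normalized CPM on a log axis of 10 genes, 8 regulators of adipogenesis and 2 inhibitors of lipolysis, in the 3 samples at 21% O2 (blue) and the 3 at 1% O2 (red), with a symbol for each replicate number and a line at the mean. Hilpda, Cebpd and Dlk1 lie higher at 1% O2 in every sample, and Pparg, Cebpa, Klf15, Zfp423 and G0s2 lie lower.

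Of the 4 adipokines, hormones and proteases that fat cells secrete, 3 were tested and all 3 fell. Adipoq, which encodes adiponectin, had 697, 2061 and 755 normoxic counts and 39, 96 and 39 hypoxic counts. That is 45.2 ± 28.6 CPM (SD, n = 3) against 1.94 ± 0.985 CPM, a log2 fold change of -4.53 ± 0.50. The lowest normoxic sample was 8.76 times the highest hypoxic one, although normoxic replicate 2 was 2.72 times the mean of replicates 1 and 3.

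Cfd, the complement protease adipsin, had 224, 1196 and 330 counts in normoxia and 22, 90 and 69 in hypoxia, a log2 fold change of -3.48 ± 0.65. Retn, which encodes resistin, had 32, 221 and 69 counts and 8, 20 and 4 counts. Pooled over replicates and scaled for depth, the ratio of normoxia to hypoxia for Retn was 11.7, with a 95% exact interval of 8.14 to 17.4 that covers counting error only. The fitted log2 fold changes rested partly on normoxic replicate 2, and without it they were -3.88 for Adipoq, -2.45 for Cfd and -2.47 for Retn. Without hypoxic replicate 2, that of Retn was -4.27. Lep, the gene of leptin, had 0 counts in all 6 samples.

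Among the droplet proteins, those of large fat cell droplets had the lowest fold changes, and Plin2 and Plin3, which most cells express, were not called. Perilipin 1 (Plin1), which coats adipocyte droplets and gates their lipases, went from 179.6, 356 and 144 CPM in normoxia to 7.15, 11.8 and 7.10 CPM in hypoxia, a log2 fold change of -4.70 ± 0.37. Plin4 went from 90.8, 133 and 98.9 CPM to 18.6, 23.1 and 17.5 CPM, a log2 fold change of -2.44 ± 0.15. The conditions did not overlap in either gene.

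Cidec, which promotes the fusion of droplets into large ones, had the lowest fitted fold change of the set, within its SE of that of Thrsp. It had 106, 303 and 91 normoxic counts and 1, 3 and 4 hypoxic counts. The pooled ratio was 72.8, with a counting interval of 36.7 to 169.6. Its fitted log2 fold change was -6.09 ± 0.67, and -5.37 without normoxic replicate 2.

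Plin2, the coat protein of droplets in most cells, was at 322, 391 and 320.0 CPM in normoxia and 327, 354 and 311 CPM in hypoxia. The conditions overlapped and the log2 fold change was -0.06 ± 0.09. Plin3, the perilipin that moves to droplets from the cytosol, was at 109, 107 and 111 CPM and 100.3, 106 and 96.4 CPM, a log2 fold change of -0.11 ± 0.05. Seipin (Bscl2) and Fitm2, proteins of the endoplasmic reticulum that help droplets form, lay between these groups.

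Bscl2 was at 55.8, 71.2 and 57.2 CPM in normoxia and 24.3, 21.3 and 23.6 CPM in hypoxia, a log2 fold change of -1.41 ± 0.10. Fitm2 was at 65.3, 75.6 and 56.2 CPM and 24.5, 25.0 and 24.8 CPM, a log2 fold change of -1.41 ± 0.10. Both were lower in every hypoxic sample, and exons of both overlap genes on the opposite strand, those of Bscl2 also a gene on the same strand.

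All of the fatty acid uptake genes that were tested fell, and Lpl fell least. Fabp4, the fatty acid binding protein of adipocytes and macrophages, was at 432, 1076 and 409.9 CPM in normoxia and 49.8, 62.5 and 50.8 CPM in hypoxia. Its log2 fold change was -3.55 ± 0.36, and -2.96 without normoxic replicate 2. Fabp5, its more widely expressed relative, was at 221 ± 119 CPM (SD, n = 3) against 76.0 ± 7.62 CPM, a log2 fold change of -1.54 ± 0.30.

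The fatty acid transporter Cd36 was at 91.0 ± 50.6 CPM (SD, n = 3) in normoxia against 14.5 ± 5.41 CPM in hypoxia, a log2 fold change of -2.64 ± 0.38. Lipoprotein lipase (Lpl), which frees fatty acids from lipoproteins, was at 5034, 5287 and 4563 CPM and 3128, 3413 and 3153 CPM. It was the most abundant gene of the set by CPM in both conditions. Its log2 fold change of -0.62 ± 0.08 lay just past the fold threshold, and without normoxic replicate 2 it was -0.58 and Lpl was no longer called.

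Lipases and their partners fell together, apart from Pnpla3. Hormone-sensitive lipase (Lipe) went from 37.4, 72.8 and 35.7 CPM in normoxia to 15.4, 10.7 and 12.01 CPM in hypoxia, a log2 fold change of -1.95 ± 0.27. Adipose triglyceride lipase (Pnpla2) was at 52.3 ± 29.6 CPM (SD, n = 3) against 13.1 ± 2.79 CPM, a log2 fold change of -1.99 ± 0.35. Its coactivator Abhd5 was at 121, 146 and 111 CPM and 65.0, 59.8 and 63.1 CPM, a log2 fold change of -1.01 ± 0.10.

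Monoglyceride lipase (Mgll) was at 21.0 ± 13.5 CPM (SD, n = 3) against 3.74 ± 1.26 CPM, with a log2 fold change of -2.47 ± 0.43 that was -1.81 without normoxic replicate 2. Aqp7, the glycerol channel of adipocytes, had 98, 205 and 62 counts in normoxia and 6, 16 and 6 in hypoxia. Its pooled ratio was 15.2, with a counting interval of 10.3 to 23.2, and its fitted log2 fold change was -3.88 ± 0.52. These genes were lower in every hypoxic sample than in any normoxic one.

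Pnpla3 had 96, 326 and 170 normoxic counts and 127, 170 and 187 hypoxic counts, overlapping, and its exons overlap a gene on the same strand. Its log2 fold change was -0.49 ± 0.35, and a single library decided its call. Without normoxic replicate 1 the value was -0.83 and the gene was called lower, while without normoxic replicate 2 it was 0.04.

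The inhibitors of adipose triglyceride lipase moved in opposite directions. Hilpda, a hypoxia-inducible droplet protein that inhibits this lipase, was at 13.8, 14.2 and 17.3 CPM in normoxia and 122, 145 and 111 CPM in hypoxia. It had the highest log2 fold change of the set, 3.06 ± 0.12. G0s2, the inhibitor typical of adipocytes and liver, went from 516, 761 and 578 CPM to 216, 242 and 193 CPM, a log2 fold change of -1.51 ± 0.14. Per length, in counts per kilobase of exon scaled to the same total in every sample, G0s2 stood at 2363 ± 467 (SD, n = 3) in normoxia and 873 ± 93.8 in hypoxia, and Hilpda at 45.6 ± 5.35 and 401 ± 53.0. On that scale G0s2 remained above Hilpda at 1% O2.

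Of the receptors, Adrb3, the β3-adrenergic receptor through which catecholamines start lipolysis in fat, had 445, 1622 and 500 counts in normoxia and 26, 85 and 53 in hypoxia. Its log2 fold change was -4.17 ± 0.56, and -3.35 without normoxic replicate 2. Acvr1c, the receptor ALK7, had 6, 44 and 9 counts and 5, 5 and 4 counts and did not pass the filter on low counts. The highest value of both genes was in normoxic replicate 2.

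Of the 7 tested genes of triglyceride synthesis listed here, all but Lpin1 fell. Of other enzymes of the first steps, which are not in the set, Gpat3 and Agpat3 were called lower, with log2 fold changes of -2.86 ± 0.32 and -0.73 ± 0.06, Gpat4, Agpat1 and Agpat4 were not called, and Agpat5 was called higher, at 0.63 ± 0.06. Gpam, which adds the first fatty acid to glycerol phosphate, was at 271 ± 79.5 CPM (SD, n = 3) against 76.1 ± 3.97 CPM, a log2 fold change of -1.83 ± 0.17. Agpat2, which adds the next, was at 92.1 ± 45.6 CPM against 28.1 ± 1.55 CPM, a log2 fold change of -1.71 ± 0.28. Lpin1, which makes diacylglycerol, was at 53.6 ± 8.18 CPM against 51.1 ± 3.41 CPM, and its log2 fold change of -0.07 ± 0.10 was not called.

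The final step is shared by Dgat1 and Dgat2. Dgat1 was at 49.3, 76.3 and 48.2 CPM in normoxia and 27.3, 28.5 and 28.1 CPM in hypoxia, a log2 fold change of -1.05 ± 0.16. Dgat2 was at 98.2 ± 49.1 CPM (SD, n = 3) against 23.3 ± 1.65 CPM, a log2 fold change of -2.08 ± 0.29. Both were lower in every hypoxic sample.

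Gpd1, which makes glycerol phosphate, had 127, 510 and 121 counts in normoxia and 27, 43 and 64 in hypoxia. Its log2 fold change of -2.70 ± 0.57 became -1.71 without normoxic replicate 2. Thrsp, a nuclear protein of lipogenic tissues, had 41, 209 and 51 counts and 2, 2 and 1 counts. The pooled ratio for Thrsp was 70.1, with a counting interval of 29.7 to 218, and its fitted log2 fold change was -5.99 ± 0.90, or -4.91 without normoxic replicate 2. The hypoxic values of Cidec and Thrsp were at or under the limit of 3 counts per library, apart from hypoxic replicate 3 of Cidec.

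Besides Lep and Acvr1c, 5 genes did not pass the filter. Cidea, a relative of Cidec typical of brown fat, Gpihbp1, which holds lipoprotein lipase on capillaries, and Fitm1, the muscle relative of Fitm2, each had 1 count, in hypoxic replicate 2, and none elsewhere. Plin5, the perilipin of oxidative tissues, had 0, 5 and 1 counts in normoxia and 3, 4 and 3 in hypoxia. Mogat1, a monoacylglycerol acyltransferase, had 0, 2 and 1 counts and 1, 0 and 0 counts. No fold change is given for these genes.

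**Figure D2:**
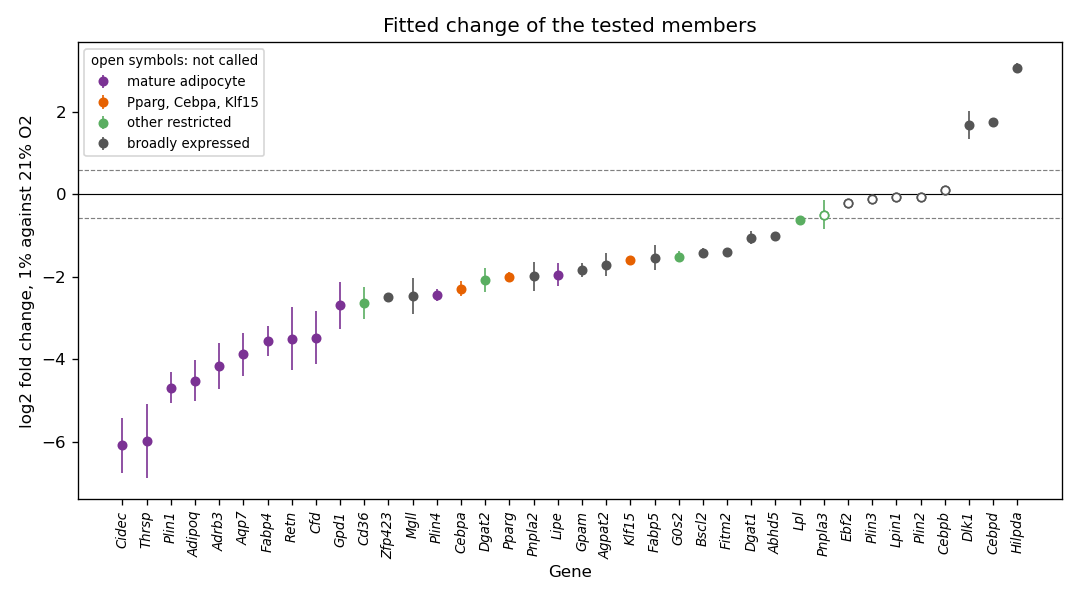
Fitted log2 fold change (1% against 21% O2) with its SE for the 38 tested genes, ordered by value and coloured by class, with open symbols for genes not called and dashed lines at a fold of 1.5. Genes of mature adipocytes take the low end, from -6.09 for Cidec, and Hilpda, at 3.06, the high end.

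The genes were divided by background knowledge into those of mature adipocytes, the regulators Pparg, Cebpa and Klf15, other genes of restricted expression, and genes that many mesenchymal cells express. Of 15 mature adipocyte genes, 12 were tested, and all 12 were called lower, with a median log2 fold change of -3.72 and a range of -6.09 to -1.95. The 3 regulators had a median of -1.996. Of the 18 broadly expressed genes, which were all tested, 3 were called higher, 10 lower and 5 not, with a median of -1.03. This class also holds Zfp423, Ebf2 and Dlk1, described above as genes of preadipocytes. Among the 9 other restricted genes, G0s2, Cd36, Dgat2 and Lpl were called lower, Pnpla3 was not called and 4 were not tested. Over all tested genes, 18.9% were called higher and 15.3% lower. The difference between classes was not tested, since the genes were chosen with these values known and genes are not replicates.

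Levels per length set the loss against what remained. In normoxia the highest levels were those of G0s2 at 2363 ± 467 (SD, n = 3), Lpl at 1579 ± 124, Cebpb at 779.5 ± 42.5 and Fabp4 at 474 ± 277 on the scale per length. The first 2 differed by more than their spread, as did Lpl and Cebpb, while Cebpb and Fabp4 did not differ by more than the sum of their SDs. Fabp4 lay within its SD of Cebpa at 410.4 ± 109.9 and Plin2 at 327 ± 36.8. In hypoxia, Lpl at 1082 ± 51.8 came first, followed by Cebpb at 887 ± 43.0, G0s2 at 873 ± 93.8, Hilpda at 401 ± 53.0 and Plin2 at 330.2 ± 20.3. With the length of the longest transcript in place of merged exons the order turned, to Lpl at 3109.8 ± 238 above G0s2 at 1828 ± 361 in normoxia, and to Plin2 at 469 ± 28.3 above Hilpda at 344 ± 44.998 in hypoxia. With merged exons, Cebpb and G0s2 did not differ beyond their spread in hypoxia, nor did Hilpda and Plin2 by more than the sum of their SDs. Fabp4 stood at 42.5 ± 5.47 in hypoxia. Plin1 stood at 162 ± 80.4 in normoxia and 6.56 ± 2.04 in hypoxia.

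**Figure D3:**
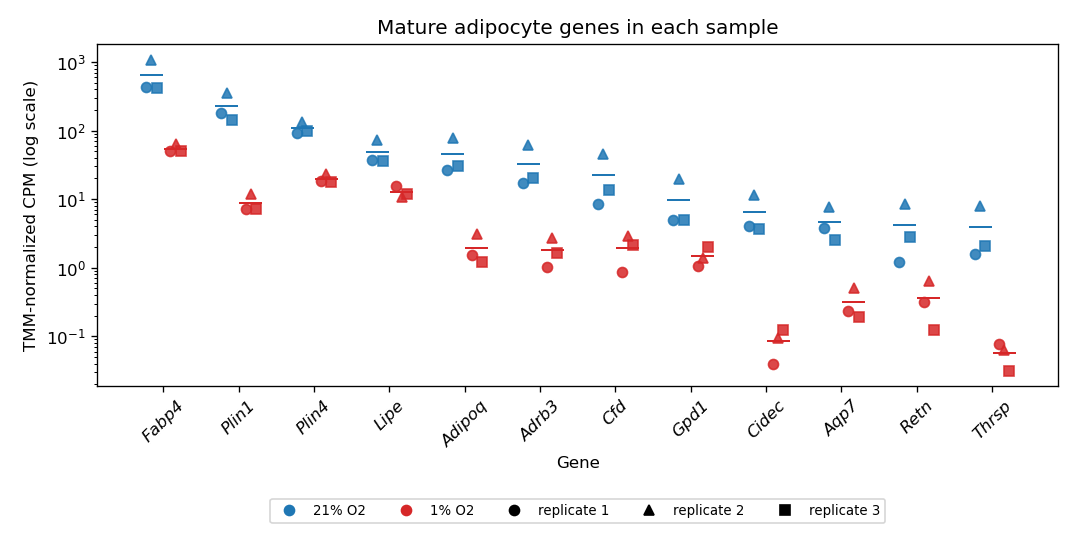
TMM-normalized CPM on a log axis of the 12 tested genes of mature adipocytes in the 3 samples at 21% O2 (blue) and the 3 at 1% O2 (red), with a symbol for each replicate number and a line at the mean. In every gene the normoxic replicate 2 (triangle) is the highest of the 6 samples and no sample of one condition overlaps the other.

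Spread across the normoxic replicates was wider in the mature adipocyte genes than in the tested genes at large, as a description without a test. The ratio of the highest to the lowest normoxic sample had a median of 3.10 over the 12 genes, from 1.46 for Plin4 to 6.81 for Retn. It had a median of 2.44 over the 5 tested other restricted genes and of 1.31 over the broadly expressed genes. The median was 1.16 over all 13977 tested genes with a normoxic mean of at least 1 CPM. The 90th percentile over those genes was 1.53, and 22 of the 38 genes described here exceeded it.

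Replicate 2 was the high one. In the mature adipocyte genes it was 1.40 to 4.35 times the mean of normoxic replicates 1 and 3, with a median of 2.84, while replicates 1 and 3 differed by a median ratio of 1.16. The widest ratio between replicates 1 and 3 was 2.27, for Retn. Normoxic replicate 2 was the highest normoxic sample in 12 of 12 of these genes and in all 5 tested other restricted genes. It was the highest in 32 of all 38, and in 43.7% of the tested genes at 1 CPM or more. Without it, the 12 genes were all still called lower, with a median log2 fold change of -3.13 and a range of -5.37 to -1.54.

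The hypoxic replicates were closer to each other. Over the 38 genes the median ratio of highest to lowest was 1.24 in hypoxia and 1.83 in normoxia. Over all tested genes with a mean of at least 1 CPM in the condition, it was 1.12 in hypoxia and 1.16 in normoxia. Over the mature adipocyte genes it was 2.50 in hypoxia, where counts of Cidec, Thrsp, Retn and Aqp7 were low and counting noise enters the ratio. Hypoxic replicate 2 was the highest hypoxic sample in 28 of 38 genes and in 35.7% of the tested genes at 1 CPM or more. It was the highest in 8 of the 12 mature adipocyte genes, the others being Cidec, Thrsp, Gpd1 and Lipe, and Lipe had its lowest hypoxic value there.

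The labels give replicates of both conditions the same numbers. In log2(CPM + 0.5), the deviation of replicate 2 from the mean of replicates 1 and 3 correlated across the 38 genes between normoxia and hypoxia with r = 0.46 and rho = 0.35. Over the tested genes at 1 CPM or more r was 0.25 and rho 0.17. The points are genes of the same 6 libraries and not independent, so the values are a description. Retn, Cfd, Adrb3, Adipoq, Cd36 and Plin1 were raised in replicate 2 of both conditions, whereas Gpd1, Dgat2 and Pnpla3 were raised in replicate 2 of normoxia and deviated by -0.08, 0.0052 and 0.0023 in hypoxia. For Cidec and Thrsp the hypoxic counts were too low for a deviation to show on this scale.

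**Figure D4:**
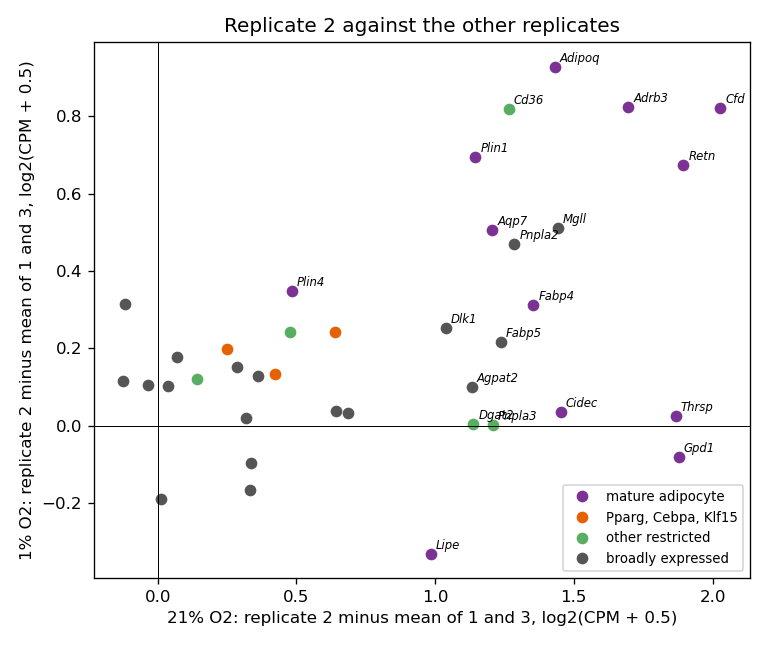
Deviation of replicate 2 from the mean of replicates 1 and 3, as a difference in log2(CPM + 0.5), in normoxia (horizontal) and hypoxia (vertical), 1 point per gene for the 38 tested genes. The genes of mature adipocytes lie between 0.48 for Plin4 and 2.03 for Cfd horizontally, a range that genes of other classes share in part, and scatter between -0.33 for Lipe and 0.93 for Adipoq vertically.

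All 15 macrophage markers were highest in replicate 2 of each condition. Of the 12 tested mature adipocyte genes, 12 were highest there in normoxia and 8 in hypoxia. Of the 15 markers, 10 were called lower at 1% O2 and none higher, where 15.3% of all tested genes were lower and 18.9% higher. Their log2 fold changes lay between -1.42 and -0.00152, with a median of -1.05. Their sum in normoxic replicate 2 was 1.48 times the mean of replicates 1 and 3. Lyz2 was the largest part of the sum, at 653, 1164 and 883 CPM in normoxia and 315, 546 and 378 CPM in hypoxia. Samples of the conditions overlapped in Adgre1, Csf1r, Ptprc, Cd68, Itgam, Ctss and Mrc1. The part of these cells in the values of Fabp4, Fabp5, Cd36, Lpl, Plin2 and Pparg was not tested. Markers of endothelial, epithelial and acinar cells summed to no more than 28.9 CPM in any sample. Mesothelial markers summed to 21.1 to 29.5 CPM in normoxia and 61.2 to 65.5 CPM in hypoxia, and epithelial markers to 3.23 to 5.31 CPM and 25.0 to 28.9 CPM. Krt19, a keratin in both lists, went from 0.715 ± 0.297 CPM (SD, n = 3) to 22.1 ± 1.66 CPM, and Wt1 from 24.3 ± 4.35 CPM to 41.2 ± 0.550 CPM, while the mesothelial Msln, Upk3b and Lrrn4 had means under 0.42 CPM in either condition. Of the other epithelial markers, Muc1 was at 2.57 ± 0.566 CPM and 3.83 ± 0.449 CPM, Krt7 at 0.805 ± 0.528 CPM and 0.665 ± 0.315 CPM, and Epcam, Cdh1, Krt8, Krt18 and Cldn4 under 0.08 CPM on average. Of the acinar markers, Cela1 was at 11.0 ± 1.26 CPM and 8.72 ± 0.540 CPM, and the other 7 were under 1 CPM in every sample, 4 of them at 0. Among the 8 endothelial markers, Tek was called higher, Kdr and Cldn5 lower, 4 were not called and 1 was not tested. Among the 12 stellate and fibroblast markers, Pdgfra and Pdpn were called higher, Lum lower, 7 were not called and 2 were not tested. The part of these lists in the results was not tested either.

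**Figure D5:**
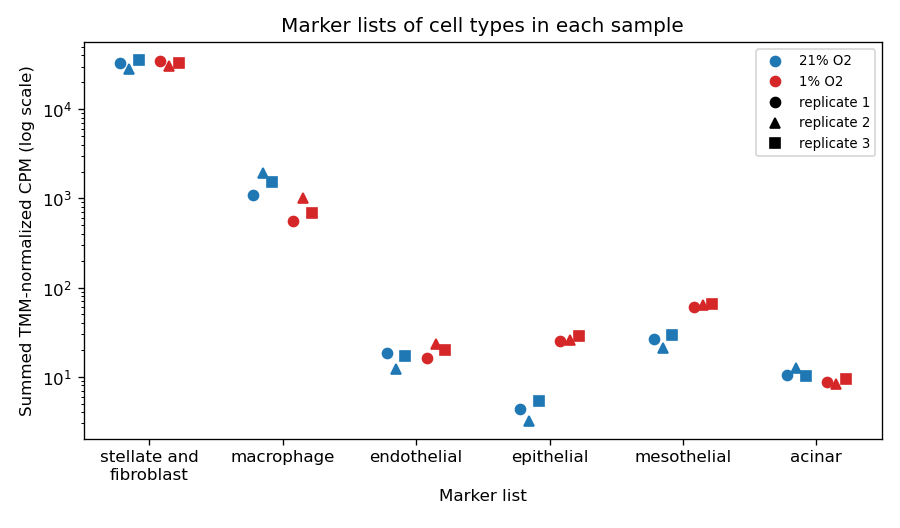
Summed TMM-normalized CPM on a log axis of 6 lists of cell type markers in the 3 samples at 21% O2 (blue) and the 3 at 1% O2 (red), with a symbol for each replicate number. For the macrophage list every hypoxic sample lies below every normoxic one, with Lyz2 the largest part of the sum. That list is highest in replicate 2 of both conditions, while the stellate and fibroblast list overlaps.

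Further genes of the pathway were listed by role. Of 82 genes, 75 were tested, and 11 were called higher and 27 lower, where 18.9% of all tested genes were higher and 15.3% lower. These lists too were written with earlier results known, so their counts and the p-values of single genes, adjusted over all 16207 tested genes, support no statement on the lists. Among 12 tested partners and coregulators of PPARγ none was higher and 6 were lower, among 15 other adipogenic factors 2 were higher and 4 lower, and among 14 repressors of adipogenesis 3 were higher and 2 lower. Of 16 other adipocyte genes 2 were higher and 10 lower, and of 18 paralogs of storage and lipolysis enzymes 4 were higher and 5 lower.

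Car3, the carbonic anhydrase abundant in adipocytes, went from 50.1, 208 and 65.0 CPM in normoxia to 0.982, 3.64 and 1.54 CPM in hypoxia, a log2 fold change of -5.67 ± 0.67 (adjusted p = 8.4e-05, edgeR). Lgals12, a galectin of lipid droplets, changed by -4.75 ± 0.59 (adjusted p = 0.000118, edgeR). The glucose transporter GLUT4 (Slc2a4) changed by -3.52 ± 0.57 (adjusted p = 0.00061, edgeR) and Trarg1, which acts in GLUT4 trafficking, by -3.51 ± 0.40 (adjusted p = 6.64e-05, edgeR). Without normoxic replicate 2, the values of Car3, Lgals12 and Slc2a4 were -4.77, -4.02 and -2.84, and without hypoxic replicate 2 those of Car3 and Trarg1 were -6.39 and -4.12. The carboxylesterases Ces1d, at -4.40 ± 0.25 (adjusted p = 1e-06, edgeR), and Ces1f, at -3.46 ± 0.47 (adjusted p = 0.000207, edgeR), fell too, though reads of such close relatives are divided between them by an estimate.

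At the other end, the highest fold changes were those of Angptl4 and Vldlr. Angptl4, a secreted inhibitor of lipoprotein lipase and a target of both PPARs and HIF, went from 116, 122 and 111 CPM in normoxia to 521, 516 and 500.5 CPM in hypoxia, a log2 fold change of 2.14 ± 0.06 (adjusted p = 3.11e-08, edgeR). Vldlr, the receptor for very low density lipoprotein, went from 95.7, 79.9 and 101 CPM to 374, 363 and 375 CPM, a log2 fold change of 2.01 ± 0.09 (adjusted p = 2.07e-07, edgeR). The conditions did not overlap in either gene. Lpin3, a paralog of the uncalled Lpin1, rose by a log2 value of 1.37 ± 0.10 (adjusted p = 3.6e-06, edgeR).

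Lsr, a lipoprotein receptor, rose by 1.12 ± 0.23 on the log2 scale (adjusted p = 0.00231, edgeR) from a low level. The transcription factors Foxc2, at 1.13 ± 0.16 (adjusted p = 0.0003, edgeR), and Sox9, at 1.07 ± 0.06 (adjusted p = 1.49e-06, edgeR), were the highest of the repressors of adipogenesis. Sox9 was at 29.2, 29.0 and 29.4 CPM in normoxia and 65.7, 60.9 and 57.1 CPM in hypoxia, without overlap.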

How the data were processed

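RNA was sequenced from cocultured PSCs in 3 normoxic and 3 hypoxic samples. Per the labels and methods, the authors prepared poly(A) libraries, trimmed reads with Cutadapt, mapped them to GRCm38 with STAR 2.6.1b and deposited expected counts (estimated counts per gene) from RSEM 1.3.1 for 55426 features, without normalization between samples. Annotation release and strand setting are not given in the sources used here. RSEM divides reads shared by several genes between them by an estimate. Of the values, 0 had a fraction, so rounding changed nothing. Genes were named by GENCODE M21, which held 55240 of the identifiers and lacked 186.

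Counts were filtered with filterByExpr, TMM-normalized and fitted by condition with edgeR 4.0.16 (limma 3.58.1, R 4.3.3), by the quasi-likelihood test with Benjamini-Hochberg adjustment over 16207 genes, and the script was tested on simulated data. Groups came from the labels. Library totals were 24749601 to 31925054, and replicates of a condition differed by more than sampling noise in a chi-square of their counts. Reads were not collapsed by molecular identifier, so intervals and limits cover counting error only. For tested members with under 100 counts in the 3 samples of a condition, pooled ratios were given with exact 95% binomial intervals. Levels per length used merged exons.

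The members and gene lists were chosen with earlier results of these data known. Values per sample are given for adipocyte genes with at least 3 counts in any sample, for regulators and for the 8 called genes at either end of the fold changes. Of the other pathway genes, the 6 called at either end with a mean of at least 1 CPM were named. Alternatives were the replicate block, DESeq2 1.42.0 with its size factors and with the block, limma-voom, upper-quartile scaling, other filters and thresholds, and each replicate left out. Leaving out both samples numbered 2 was added after the data were seen.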

Additional observations from a re-analysis of the deposited data

How the results depend on the processing

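Of 646 fold changes of the 38 tested genes under 17 alternatives, 642 stayed on their side of the thresholds, and no called value changed sign. The sign changed in 5 values of 3 uncalled genes, to 0.04 for Plin2, 0.06 for Lpin1 and 0.04 for Pnpla3 without normoxic replicate 2 and to 0.02 for Lpin1 and 0.04 for Pnpla3 without both samples numbered 2. Lpl lost its call without normoxic replicate 2 and at a fold of 2, Pnpla3 gained one without normoxic replicate 1, and Ebf2 gained one with no fold threshold. Acvr1c, not tested in edgeR's filtered fit, made 13 adipocyte genes called lower by DESeq2 and with no filter on low counts. Over all genes, 5150 were called higher and 5018 lower with no fold threshold, and 1929 and 1227 at a fold of 2. The median ratio of the highest to the lowest normoxic sample over the 38 genes was 1.87 on raw library totals and 1.83 with TMM. Levels per length of 14 genes moved by more than their SD when the longest transcript replaced merged exons.

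Deviations from the group means correlated between samples of the same number at 0.14, 0.14 and 0.038. Such values cannot decide whether the numbers mark pairs. The labels do not say so and the paper's methods name no block, so the main fit used none. With the replicate block in edgeR, 3 of the genes were called higher and 29 lower, as without it, and 3072 of all genes were higher and 2500 lower. Genes with under 10 counts in a condition, such as Cidec and Thrsp, have fold changes limited by depth.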
